A study of Homo sapiens with 12 samples.

Results

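The nuclear-encoded subunits of the mitochondrial respiratory chain were followed after knockdown of FOXA1 in PC3 and VCaP, 2 human cell lines from prostate cancer. Members were the protein-coding rows of the count tables whose names start with NDUFA, NDUFB, NDUFC, NDUFS or NDUFV and a number, UQCR, COX4 to COX8 or ATP5, together with SDHA, SDHB, SDHC, SDHD and CYC1, and without the NDUFAF assembly factors. The rule took 89 of 60106 rows, out of 20298 protein-coding rows. By their roles, 36 members belong to complex I, 4 to complex II, 9 to complex III, 18 to complex IV and 15 to ATP synthase (complex V), with NDUFA4 and NDUFA4L2 placed in complex IV. The other 7 are readthrough transcripts, relatives or factors that are not subunits: NDUFC2-KCTD14, UQCRHL, COX7A2L, ATP5L2, ATP5J2-PTCD1, ATP5S and ATP5SL. The ATP5 names are older symbols, and the subunits USMG5, C14orf2, ATPIF1 and NDUFAB1 carry names that the rule does not take.

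The study asked how FOXA1, a pioneer transcription factor of the prostate epithelium, bears on splicing-related expression and on splicing. PC3 and VCaP are established lines from metastatic prostate cancer; VCaP expresses an ERG fusion. Each line was transfected with a non-silencing siRNA (NSI) or an siRNA against FOXA1 (siFOXA1) by lipofection with RNAiMax, and RNA was taken after 72 h from 3 replicates per group, 12 libraries in all. PC3 grew in RPMI-1640, received 20 nM siRNA and was sequenced from poly(A) mRNA libraries, whose counts ignored strand. VCaP grew in DMEM, received 40 nM siRNA and was sequenced from total RNA libraries, whose counts used strand. The cell line therefore cannot be told apart from siRNA dose, medium, library kit and counting mode. The labels name no second siRNA and do not say that replicates were separate cultures, so the p-values measure the spread between these samples, which may be technical.

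The respiratory chain sits in the inner mitochondrial membrane. Complex I takes electrons from NADH and complex II from succinate, coenzyme Q carries them to complex III, cytochrome c carries them on to complex IV, and ATP synthase uses the proton gradient that complexes I, III and IV build. All subunits of complex II and most subunits of the other complexes are encoded in the nucleus, and the rest are encoded by mitochondrial DNA. Prostate epithelium is known for a low flow of citrate through the tricarboxylic acid cycle, which rises in prostate cancer.

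FOXA1 itself checks the labels. In PC3, FOXA1 was at 296, 246 and 261 CPM across the NSI libraries against 165, 184 and 164 CPM across the siFOXA1 libraries, where CPM stands for counts scaled by library size and TMM factor to a common total. It fell by 0.65 on the log2 scale (SE 0.10, adjusted p 0.00222, edgeR quasi-likelihood test with Benjamini-Hochberg adjustment, as for each adjusted p below). In VCaP, FOXA1 was at 458, 468 and 544 CPM across the NSI libraries against 85.2, 73.6 and 83.05 CPM across the siFOXA1 libraries and fell by 2.60 (SE 0.09, adjusted p 1.84e-07). No library of either line overlapped the other group, and the knockdown was larger in VCaP, with a difference of −1.93 (adjusted p 3.12e-07). The line markers followed the labels: ERG had a mean of 238 CPM in VCaP NSI and at most 0.0724 CPM in any PC3 library, and CAV1 had a mean of 131 CPM in PC3 NSI. The leukocyte markers PTPRC and CD3E and the stromal marker DCN were near 0, and COL1A1 was below 32 CPM in every group mean. The PC3 libraries held 123140099 to 188226483 counts each and the VCaP libraries 48187047 to 59839211.

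In PC3, most subunit transcripts were measured lower after FOXA1 knockdown, but few passed the test one by one. Of the 84 members tested, 18 were called lower and 1, SDHA, was called higher at an adjusted p under 0.05. That is 22.6% called, against 27.0% of the 26435 genes tested; by direction the background was 12.1% lower and 15.0% higher. The median log2 fold change of the members was −0.29, against 0.02 for all genes tested, and 78 of 84 members lay below 0, against 48.6% of all genes. For the 10923 other nuclear protein-coding genes at 5 CPM or more, the median was −0.06, and 58% lay below 0. Of those genes, 17% were called lower and 13.6% higher. The 3 siFOXA1 values lay below all NSI values for 22 members and above for 1, where 20.5% and 23.9% of all genes did so. Summed over members, the CPM of the NSI libraries came to 7629, 10330 and 8335 and that of the siFOXA1 libraries to 6484, 8208 and 6471, which is 80.5% of the NSI mean. The groups overlap in this sum only because the second siFOXA1 library (8208) is above the first NSI library (7629). In these bulk samples, a smaller share of cells that express a gene and less RNA per cell cannot be told apart.

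The PC3 libraries numbered 2 stood apart from the others in the same way in both groups. The NSI library numbered 2 held the highest value of its group for 78 of the 84 members and the siFOXA1 library numbered 2 for 76 of 84, at a median of 0.29 and 0.27 log2 above the group mean. The 2204 protein-coding genes with less exon than the median tested member, which include the shorter members, were also above their group mean there, at a median of 0.22 and 0.18. Deviations of PC3 libraries with the same number correlated at 0.66, 0.72 and 0.30 over genes at 5 CPM or more. NSI replicate 3, however, deviated most like siFOXA1 replicate 1, so the pairing taken from these data is uncertain. With the replicate number as a block, 57 members were called lower and 2 higher, 70.2% against 42.7% of all genes tested (21.0% lower, 21.7% higher). Within the numbered pairs, 69, 77 and 77 of 84 members were lower in siFOXA1, and 66 were lower in all 3 pairs, 78.6% against 32.5% of all genes. Without both libraries numbered 2, 50 members were called lower and 1 higher (60.7%, against 38.1% of all genes), at a median of −0.29. The number of calls without a block changed with single libraries, to 3 without siFOXA1 replicate 1, 6 without NSI replicate 3, 9 without siFOXA1 replicate 3, 13 without NSI replicate 2, 22 without NSI replicate 1 and 41 without siFOXA1 replicate 2. In the same order, 3.53%, 7.14%, 10.6%, 15.5%, 25.9% and 48.2% of members were called. The share of all genes called changed too, to 14.6%, 16.9%, 18.8%, 27.8%, 21.1% and 24.5%. The median of the members was −0.13 without NSI replicate 2 and −0.46 without siFOXA1 replicate 2. Calls of ATP5B, NDUFV3 and SDHD were kept whichever library was left out. Short transcripts as a class (under 1515 bases of exon) also leaned lower. The median of the 962 other short nuclear protein-coding genes at 5 CPM or more was −0.18, beside −0.25 for the 38 short members and −0.33 for the 44 longer ones. The part of the library numbered 2 and of transcript length in the member values was not tested beyond these counts.

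In VCaP, where FOXA1 fell further, the members split. Of 83 members tested, 23 were called lower and 8 higher, 37.3% against 45.8% of the 22925 genes tested, with backgrounds of 23.3% lower and 22.5% higher. Against all genes tested, the share of members called lower is thus near the background, and the share called higher is below it. Of the 10590 other nuclear protein-coding genes at 5 CPM or more, 34% were called lower and 24.3% higher. Their median was −0.05, and 55.5% of them lay below 0. The median log2 fold change was −0.09, against 0.02 for all genes, and 61 of 83 members lay below 0, against 47.8% of all genes. The siFOXA1 values lay below all NSI values for 27 members and above for 10, where 28.0% and 27.9% of all genes did so. The summed CPM came to 6044, 5711 and 6450 for NSI and to 5313, 5341 and 5364 for siFOXA1. That is 88.0% of the NSI mean, and here the groups do not overlap. Nuclear protein-coding genes held 67.3% to 69.4% of all counts in VCaP NSI but 60.4% to 64.2% in VCaP siFOXA1. Of the nuclear protein-coding counts, members made up 0.8565% to 0.9216% in NSI and 0.8445% to 0.8542% in siFOXA1, a smaller gap. The part of library composition in the summed CPM was not tested. Other short nuclear protein-coding genes at 5 CPM or more had a median of −0.14, below that of the 37 short members (−0.07). With upper-quartile scaling in place of TMM the median of the members was −0.04 and the split was 17 lower and 10 higher (32.5%, against 46.1% of all genes). With nuclear protein-coding genes alone in the fit the median was −0.06, with 21 lower and 10 higher (37.3%, against 58.6%). Without NSI replicate 3, which held the highest NSI value for 69 members, the median was −0.04.

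**Figure D1:**
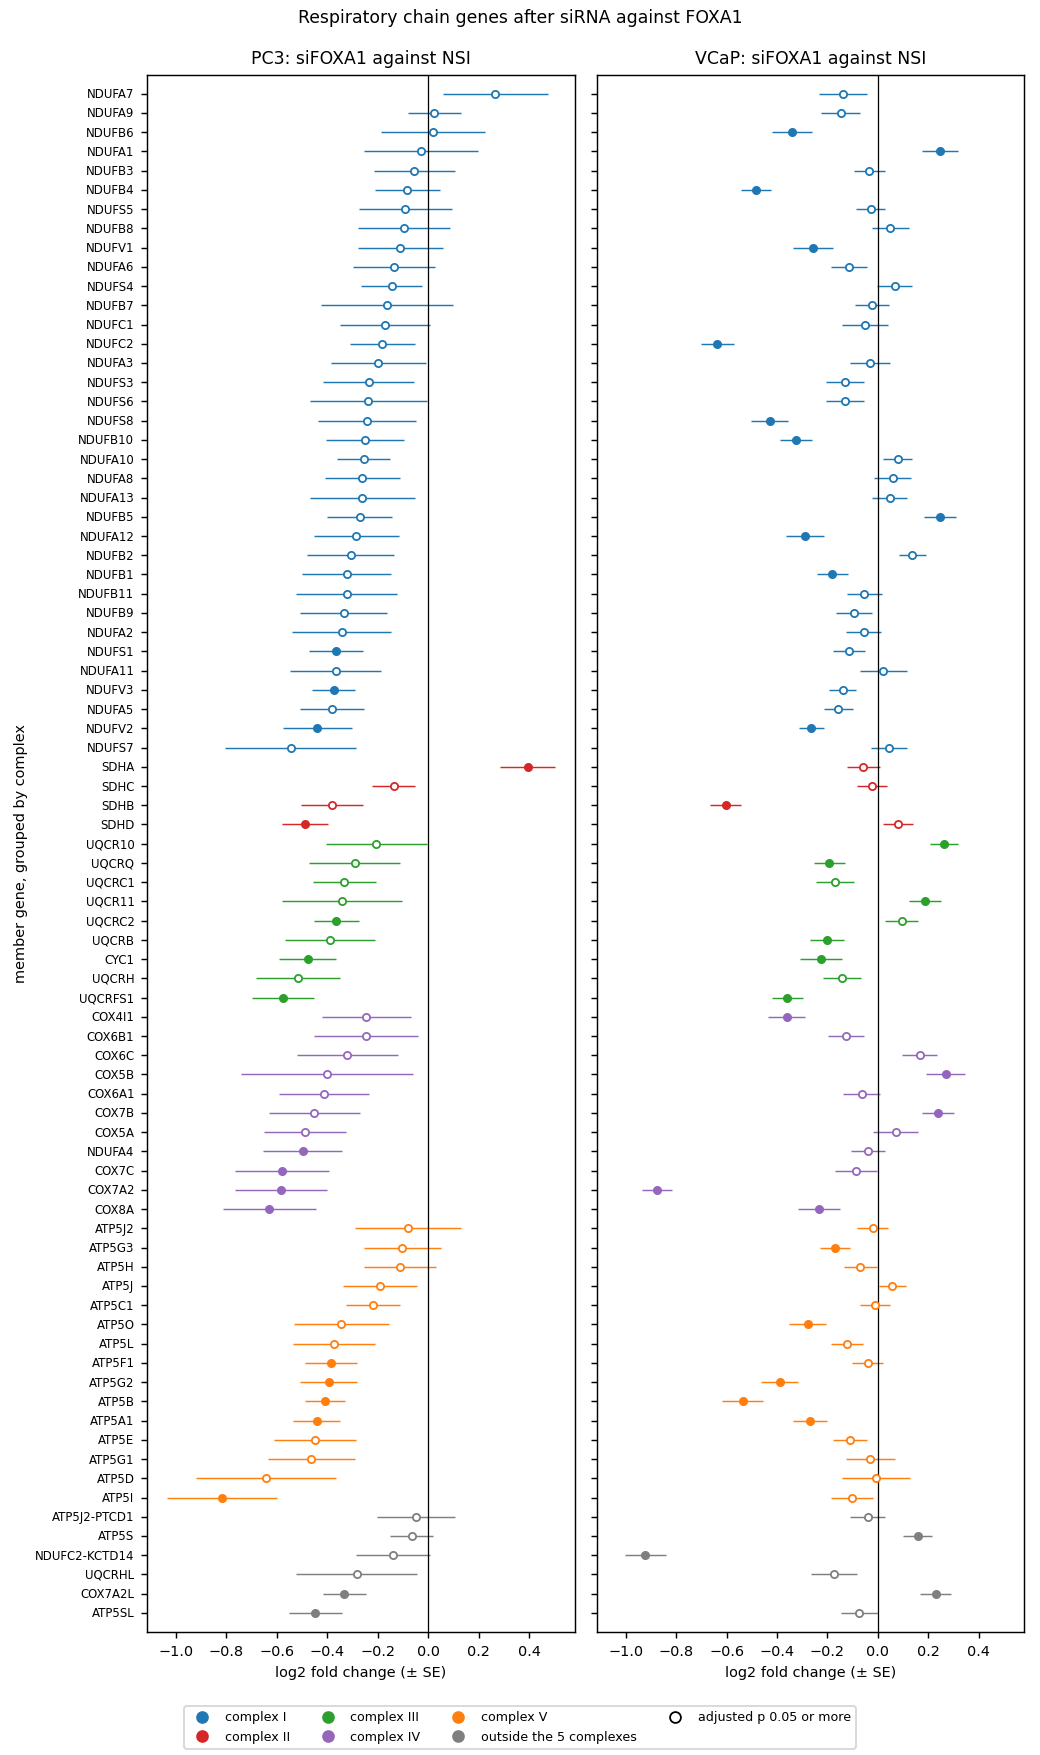
Log2 fold change (siFOXA1 against NSI, x axis) with its standard error for 80 of the 81 members at 5 CPM or more in both lines, grouped and coloured by complex, with PC3 and VCaP in separate panels and filled points for members called at an adjusted p under 0.05. Most PC3 points lie to the left of 0 whether called or not, while VCaP points spread to both sides, from COX7A2 at −0.88 to COX5B at 0.27 among the complex IV members.

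By complex, the PC3 sums were 86.4% of NSI for complex I, 103% for complex II, 74.9% for complex III, 74.6% for complex IV and 78.0% for ATP synthase. The VCaP sums were 91.4%, 89.9%, 91.5%, 94.3% and 81.2% in the same order. By summed CPM, complexes III and IV and ATP synthase thus had the lowest remaining share in PC3, and ATP synthase in VCaP. A sum is weighted towards abundant members, in ATP synthase above all ATP5B and ATP5A1. The sums are scaled to the counts of all genes tested, whose nuclear protein-coding share was lower in VCaP siFOXA1. By median log2 fold change, complex III was lowest in VCaP at −0.17, against −0.10 for ATP synthase, where 10 of 15 members were not called. The complex II sum in PC3 combines SDHA, which rose, with SDHB, SDHC and SDHD, which had lower values in siFOXA1.

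**Figure D2:**
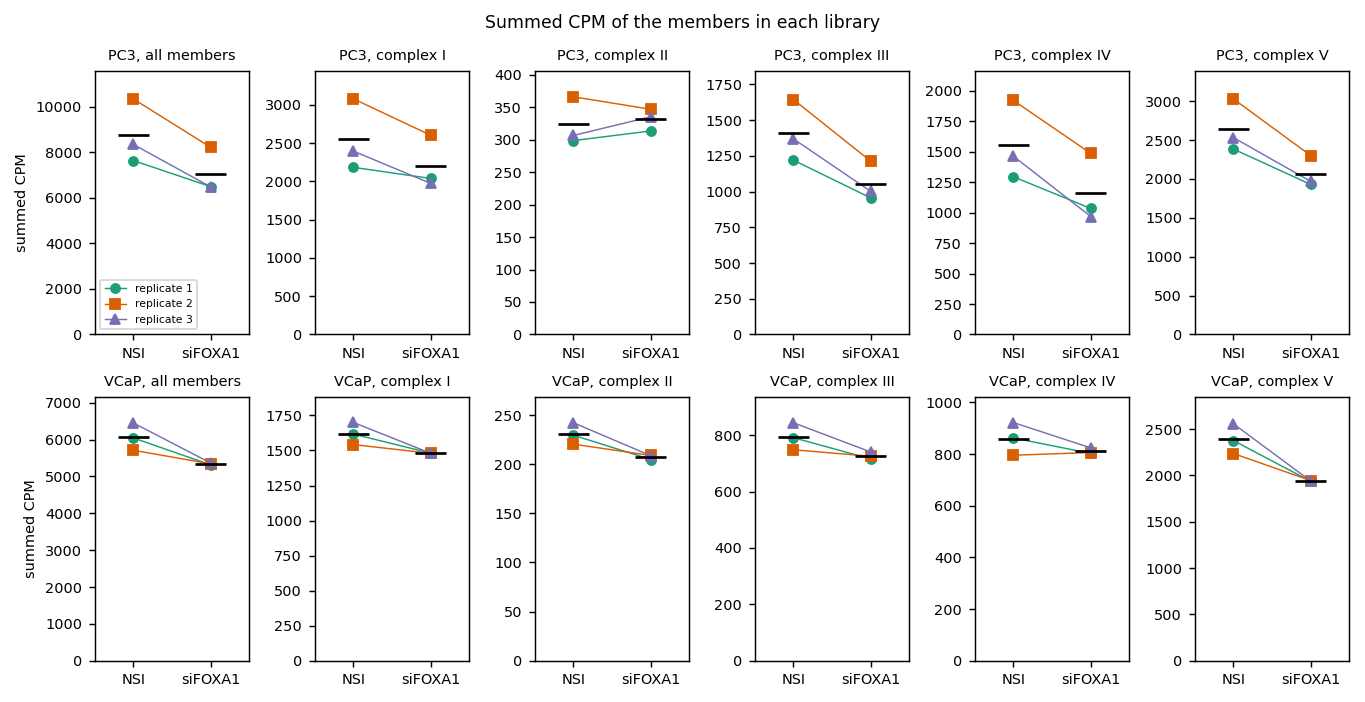
Summed CPM (y axis, from 0) of the members of each complex in each of the 12 libraries, with points for libraries, bars for group means and thin lines joining libraries with the same replicate number. In PC3 each numbered pair runs downward for complexes I, III, IV and V while the libraries numbered 2 sit highest, and in VCaP the siFOXA1 sums of complex V lie between 1937 and 1945 CPM, below all NSI sums (2237 to 2558 CPM).

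Promoter windows of the members were searched for short motifs of known activators of mitochondrial genes. RefSeq windows from 250 bases before to 50 bases after the start (GRCh38.p14) matched 68 of the 89 members, with 81 windows. On both strands, GCGCNTGCG (the core of the NRF1 motif) stood in 30.9% of the member windows against 7.47% of all 35116 windows, CCGGAAG (ETS factors such as GABPA) in 25.9% against 10.3%, AAGGTCA (estrogen-related receptors such as ESRRA) in 13.6% against 3.92% and AAGATGGCG (YY1) in 12.3% against 1.75%. CCAAT stood in 34.6% of both, GGGCGG in 60.5% against 45.0%, and the forkhead motifs TGTTTAC and TATTTAC in 1.23% against 3.42% and in 3.70% against 2.67%. By calls, the windows are too few to compare: those of members lower in VCaP numbered 22 and held GCGCNTGCG, CCGGAAG and AAGGTCA in 5 each and AAGATGGCG in 1, and of the 7 windows of members higher in VCaP these motifs stood in 2, 3, 0 and 0. A match is a run of letters, not a bound site.

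Shown here are 210 bases ending 40 bases before the RefSeq start of 3 members that were called in VCaP, with matches to GCGCNTGCG, CCGGAAG and AAGGTCA in capitals and the other motifs left in lower case: SDHB and NDUFB4, which fell, and UQCR11, which rose. SDHB (GRCh38.p14, chr1:17054073-17054282, minus strand) holds AAGGTCA and CCGGAAG. NDUFB4 (GRCh38.p14, chr3:120596086-120596295, plus strand) holds GCGCNTGCG or its reverse complement CGCANGCGC at 2 places, the first of them on both strands. UQCR11 (GRCh38.p14, chr19:1605503-1605712, minus strand) holds CCGGAAG on each strand. The searched windows run past the bases shown. In its whole window, with both strands counted, UQCR11 also holds 2 matches to GCGCNTGCG. The whole NDUFB4 window holds 4 matches to GCGCNTGCG and 1 to AAGGTCA, so the bases shown do not set these genes apart by GCGCNTGCG. The bases run 5′ to 3′ in the direction of the gene.
SDHB: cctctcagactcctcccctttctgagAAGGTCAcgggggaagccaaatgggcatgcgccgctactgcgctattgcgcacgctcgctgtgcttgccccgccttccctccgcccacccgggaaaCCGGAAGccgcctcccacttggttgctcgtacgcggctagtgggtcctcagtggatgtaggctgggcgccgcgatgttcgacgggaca
NDUFB4: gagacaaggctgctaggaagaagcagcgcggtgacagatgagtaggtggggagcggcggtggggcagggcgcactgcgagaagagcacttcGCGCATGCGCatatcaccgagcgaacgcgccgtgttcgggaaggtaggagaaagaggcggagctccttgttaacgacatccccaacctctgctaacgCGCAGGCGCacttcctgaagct
UQCR11: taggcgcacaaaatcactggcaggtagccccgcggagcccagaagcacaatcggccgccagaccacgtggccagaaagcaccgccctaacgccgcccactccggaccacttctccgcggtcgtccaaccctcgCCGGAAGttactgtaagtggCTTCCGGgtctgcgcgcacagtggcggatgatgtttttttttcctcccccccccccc

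Complex I, the largest of the complexes, had the lowest share of called members in PC3. In VCaP it had the most called members by number, but a lower share called than complexes III, IV and V. In PC3, 3 of 36 members were called lower (8.33%, against 27.0% of all genes tested) and 0 higher, at a median of −0.24. With the replicate block 20 were called lower and 1, NDUFA7, higher (58.3%, against 42.7% of all genes). In VCaP, 9 were called lower and 2 higher (30.6%, against 45.8% of all genes tested), at a median of −0.08. Of the 7 core subunits, which carry the redox centres, 2 were called lower in PC3 and 3 in VCaP, and of the 29 supernumerary subunits 1 and 6.

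NDUFS1, the core subunit with several iron-sulfur clusters (ENSG00000023228.13_3, chr2:206979541-207024327, minus strand), was at 215, 178 and 216 CPM across the NSI libraries against 163, 143 and 167 CPM across the siFOXA1 libraries in PC3. All siFOXA1 values lay below the NSI values, and it fell by 0.37 (SE 0.11, adjusted p 0.0353). In VCaP it had a log2 fold change of −0.12 (adjusted p 0.162), also with no overlap. NDUFV3, a small subunit beside the NADH site, was at 50.1, 56.5 and 51.6 CPM with NSI against 42.1, 38.7 and 41.1 CPM with siFOXA1 in PC3 and fell by 0.38 (adjusted p 0.0132), again without overlap. NDUFV2, a core subunit of the NADH-oxidising module, was the complex I member called lower in both lines. It was at 24.4, 33.1 and 25.97 CPM with NSI against 19.7, 23.2 and 18.6 CPM with siFOXA1 in PC3 and at 52.4, 52.8 and 50.6 CPM with NSI against 43.98, 43.02 and 42.7 CPM with siFOXA1 in VCaP, without overlap in either line. It fell by 0.44 (SE 0.14, adjusted p 0.04305) and by 0.26 (SE 0.05, adjusted p 0.00239), and 41.1% of its exon bases overlap another gene on its strand. The PC3 calls of NDUFS1 and NDUFV2 rest on few libraries: NDUFS1 lost its call without any 1 of the other libraries than NSI replicate 2 (adjusted p up to 0.124), and NDUFV2 lost its call without NSI replicate 2 or 3 or siFOXA1 replicate 1 or 3 (up to 0.142).

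The members of complex I that fell most in VCaP were not called in PC3 without the replicate block, and of these only NDUFC2 was called with it. NDUFC2, a membrane-arm subunit (ENSG00000151366.12_4, chr11:77779350-77791265, minus strand), was at 34.3, 31.9 and 34.97 CPM across the NSI libraries against 22.6, 21.9 and 20.6 CPM across the siFOXA1 libraries in VCaP, with the groups far apart, and fell by 0.64 (SE 0.06, adjusted p 4.57e-05). In PC3 it was at 35.8, 44.6 and 36.05 CPM with NSI against 31.6, 39.8 and 31.2 CPM with siFOXA1, where the groups overlap, with a log2 fold change of −0.18 (adjusted p 0.328, 0.0303 with the replicate block). The lines differed by −0.43 (adjusted p 0.0432), a call that was lost without VCaP NSI replicate 1 or 3 or without any 1 VCaP siFOXA1 library (up to 0.103). NDUFC2-KCTD14, a readthrough transcript that shares all its exon bases with other genes, moved the same way, with −0.92 in VCaP (adjusted p 1.76e-05), −0.14 in PC3 (adjusted p 0.515) and a difference of −0.76 (adjusted p 0.00391); fragments that overlap both genes were divided between them, so they are not independent. NDUFB4, a membrane-arm subunit whose promoter is shown above, was at 66.1, 66.8 and 67.7 CPM with NSI against 50.7, 47.7 and 45.2 CPM with siFOXA1 in VCaP and fell by 0.48 (SE 0.06, adjusted p 1.45e-04). Its PC3 log2 fold change was −0.08 (adjusted p 0.664), and the difference between the lines was not called (−0.38, adjusted p 0.071; 0.00685 with the block). NDUFS8, a core iron-sulfur subunit and the most abundant complex I member per kilobase of exon in VCaP NSI (131 ± 9.66 CPM per kb, SD, n = 3), was at 108, 95.01 and 108 CPM with NSI against 76.1, 81.6 and 73.6 CPM with siFOXA1 and fell by 0.43 (adjusted p 0.00109). In PC3 it was at 72.03, 109 and 81.7 CPM with NSI against 73.05, 91.6 and 57.4 CPM with siFOXA1, with a log2 fold change of −0.24 (adjusted p 0.385), and the difference between the lines was not called (−0.17, adjusted p 0.656). No siFOXA1 library of VCaP reached an NSI value for these members.

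The other members called lower in VCaP were NDUFB6, NDUFB10, NDUFA12, NDUFV1 and NDUFB1, with log2 fold changes between −0.34 (NDUFB6) and −0.18 (NDUFB1). NDUFV1 carries the flavin at which NADH is oxidised; it was at 168, 157 and 190.5 CPM with NSI against 139, 148 and 144 CPM with siFOXA1 in VCaP (log2 fold change −0.26, adjusted p 0.0253), a call lost without NSI replicate 3 or siFOXA1 replicate 1 or 2 (up to 0.0694). In PC3 it had −0.11 (adjusted p 0.656). NDUFB5 and NDUFA1, both of the membrane arm, rose in VCaP. NDUFB5 was at 28.3, 26.7 and 30.5 CPM with NSI against 34.3, 33.3 and 34.01 CPM with siFOXA1 in VCaP and rose by 0.25 (adjusted p 0.0107), against −0.27 in PC3 (adjusted p 0.152, 0.0132 with the block), a difference of 0.54 (adjusted p 0.0146). NDUFA1 was at 19.99, 19.9 and 23.04 CPM with NSI against 25.3, 24.3 and 25.1 CPM with siFOXA1 in VCaP and rose by 0.25 (adjusted p 0.0214), a call lost without NSI replicate 1 or 2 or siFOXA1 replicate 1 (up to 0.098). NDUFA10 was called only for the difference between the lines, at 0.36 (adjusted p 0.0431), with −0.26 in PC3 (adjusted p 0.102, 0.00982 with the block) and 0.08 in VCaP (adjusted p 0.287); that call held in 1 of the 12 fits that each left out a library, with adjusted p up to 0.157.

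Other complex I members passed in neither line. NDUFB7, the most abundant complex I member per length in PC3 NSI (219 ± 62.6 CPM per kb, SD, n = 3), was at 85.8, 152 and 112 CPM with NSI against 86.6, 146 and 79.3 CPM with siFOXA1 in PC3 (adjusted p 0.674). Its highest value was in the NSI library numbered 2 and its groups overlap. In VCaP it was at 45.5, 40.97 and 48.2 CPM with NSI against 42.9, 44.7 and 44.9 CPM with siFOXA1, where the groups overlap as well (adjusted p 0.8001). For NDUFA7, NDUFB8, NDUFB2 and NDUFB11, between 44.9% and 75.9% of the exon bases overlap another gene, so their counts are uncertain.

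The 4 subunits of complex II went different ways. SDHA, the flavoprotein that oxidises succinate (ENSG00000073578.16_3, chr5:218356-256815, plus strand), was at 136, 169 and 133 CPM across the NSI libraries against 182, 202 and 191 CPM across the siFOXA1 libraries in PC3. All siFOXA1 libraries lay above all NSI libraries, and SDHA rose by 0.39 (SE 0.11, adjusted p 0.0301; 0.00112 with the block), the only member called higher there without a block. VCaP libraries held it at 81.9, 80.1 and 90.1 CPM with NSI against 78.8, 79.4 and 84.02 CPM with siFOXA1, with overlapping groups (adjusted p 0.5002), and the lines differed by −0.43 (adjusted p 0.0276). The PC3 call was lost in 5 of 6 fits that left out a library, all but that without NSI replicate 2 (adjusted p up to 0.121), and the difference was lost without VCaP NSI replicate 3 or siFOXA1 replicate 1 or 2 (up to 0.0748). SDHA has pseudogenes that held 22.5% (PC3) and 33.0% (VCaP) of the reads counted for the parent and pseudogenes together; with these added to SDHA, the PC3 log2 fold change was 0.38 (adjusted p 0.0169).

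SDHB, the iron-sulfur subunit (ENSG00000117118.9_2, chr1:17345217-17380665, minus strand), was at 63.3, 59.6 and 67.2 CPM across the NSI libraries against 43.2, 41.8 and 40.1 CPM across the siFOXA1 libraries in VCaP. The siFOXA1 values lay well below all NSI values, and SDHB fell by 0.60 (SE 0.06, adjusted p 5.24e-05). In PC3 it was at 77.2, 101 and 83.4 CPM with NSI against 59.7, 73.7 and 67.5 CPM with siFOXA1, again without overlap, with a log2 fold change of −0.38 that missed the threshold (SE 0.12, adjusted p 0.05098) and passed it with the replicate block (8.70e-04). SDHD, a membrane anchor of the complex (ENSG00000204370.10_4, chr11:111957497-111990736, plus strand), was at 42.2, 49.1 and 46.4 CPM across the NSI libraries against 30.5, 33.4 and 34.2 CPM across the siFOXA1 libraries in PC3. It fell by 0.49 (SE 0.09, adjusted p 0.005903), without overlap, and this call was kept whichever library was left out. The VCaP values were 42.2, 39.99 and 45.2 CPM with NSI against 44.8, 45.7 and 44 CPM with siFOXA1, where the groups overlap (log2 fold change 0.08, adjusted p 0.3198), and the lines differed by 0.59 (adjusted p 0.00154). SDHC, the other membrane anchor, was at 43.3, 46.8 and 43.9 CPM with NSI against 41.2, 37.8 and 42.6 CPM with siFOXA1 in PC3 (adjusted p 0.264) and at 42.02, 40.8 and 39.7 CPM with NSI against 37.99, 41.99 and 40.6 CPM with siFOXA1 in VCaP (adjusted p 0.782) and was called in neither. Within the complex, then, PC3 had SDHA up and SDHD down, and VCaP had SDHB down. SDHB was the most abundant member per length, at 75.6 ± 10.8 CPM per kb in PC3 NSI and 54.96 ± 3.296 in VCaP NSI (SD, n = 3).

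**Figure D3:**
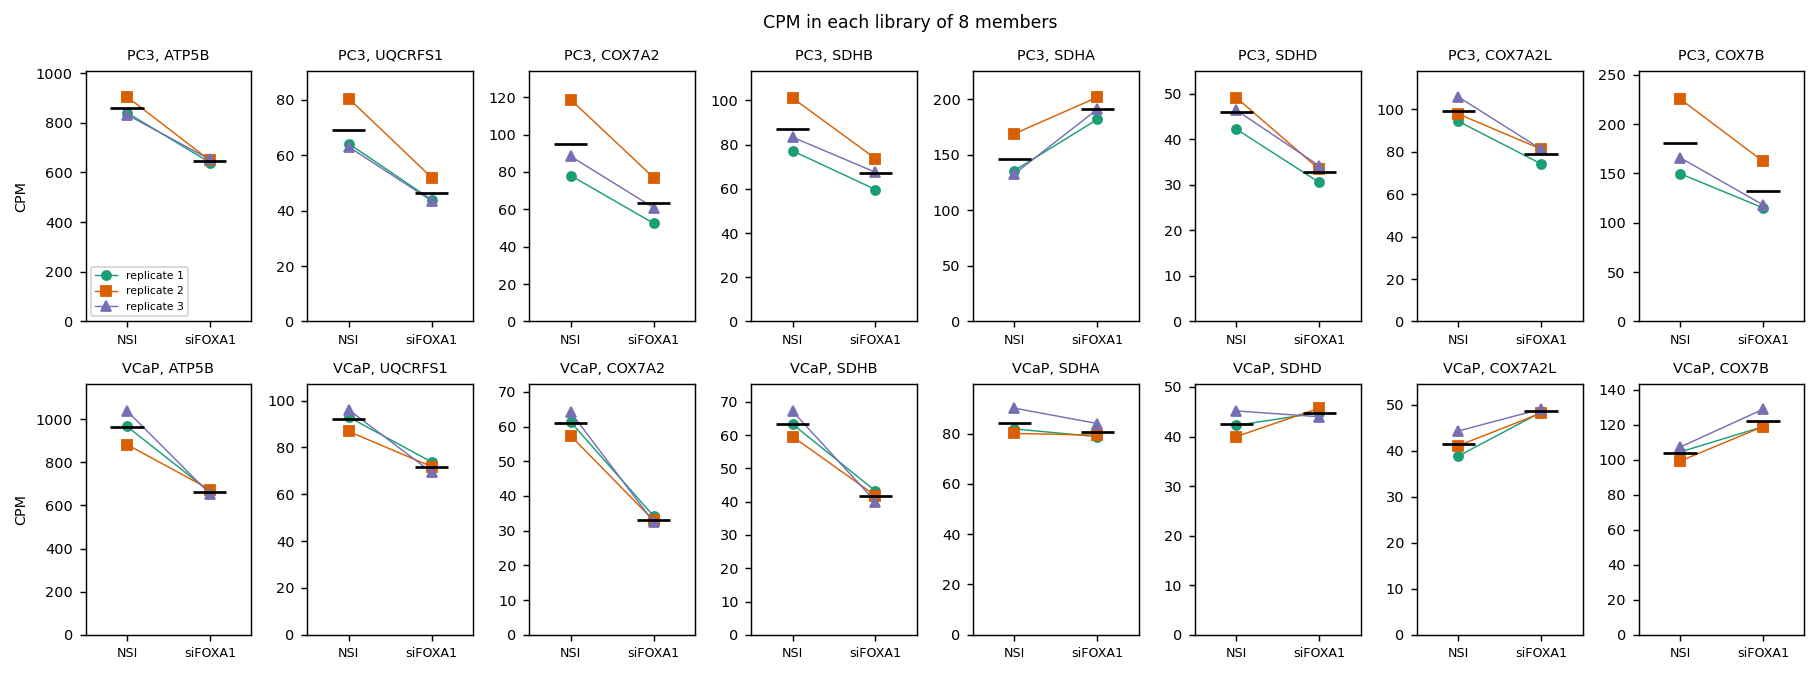
CPM (y axis, from 0 in each panel) of 8 members in each of the 12 libraries: ATP5B, UQCRFS1, COX7A2, SDHB, SDHA, SDHD, COX7A2L and COX7B, with points for libraries and bars for group means. ATP5B, UQCRFS1, COX7A2 and SDHB are lower in siFOXA1 in both lines, SDHA is higher and SDHD lower in PC3 alone by their calls, and COX7A2L and COX7B have lower means in PC3 and higher means in VCaP.

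In complex III, all 9 members had a log2 fold change below 0 in PC3, at a median of −0.36. There 3 were called lower and 0 higher (33.3%, against 27.0% of all genes tested). All 9 were called lower with the replicate block, where 21.0% of all genes were. In VCaP, 4 were called lower and 2 higher (66.7%, against 45.8% of all genes tested), at a median of −0.17. UQCRFS1, the Rieske iron-sulfur protein (ENSG00000169021.5_2, chr19:29696228-29704448, minus strand), was at 64.2, 80.5 and 63.03 CPM across the NSI libraries against 43.9, 51.9 and 43.6 CPM across the siFOXA1 libraries in PC3 and fell by 0.58 (SE 0.12, adjusted p 0.00964). In VCaP it was at 92.95, 86.8 and 96.04 CPM with NSI against 73.8, 71.8 and 69.3 CPM with siFOXA1 and fell by 0.36 (SE 0.06, adjusted p 0.00114). The groups were apart in both lines. CYC1, cytochrome c1 (ENSG00000179091.4_2, chr8:145149930-145152428, plus strand), was the most abundant complex III member per length in PC3 NSI, at 409 ± 48.3 CPM per kb (SD, n = 3). It was at 446, 566 and 508 CPM with NSI against 326, 397 and 368 CPM with siFOXA1 in PC3 and fell by 0.48 (SE 0.11, adjusted p 0.0161). For VCaP the values were 89.8, 77.2 and 91.8 CPM with NSI against 69.4, 72.6 and 79.4 CPM with siFOXA1, where the groups overlap, and its fall of 0.23 passed by little (SE 0.08, adjusted p 0.0483).

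UQCRC2, a core protein of complex III, was at 125, 140.5 and 130.4 CPM with NSI against 99.5, 109.5 and 98.6 CPM with siFOXA1 in PC3 and fell by 0.36 (adjusted p 0.0164). It was at 70.4, 73.9 and 79.9 CPM with NSI against 76.8, 79.7 and 82.8 CPM with siFOXA1 in VCaP (log2 fold change 0.09, adjusted p 0.276), and the lines differed by 0.48 (adjusted p 0.00609), whichever library was left out. UQCRC1, the other core protein, was at 149, 206 and 165 CPM with NSI against 134, 147 and 132 CPM with siFOXA1 in PC3, without overlap but not called (log2 fold change −0.33, adjusted p 0.0787; 0.00523 with the block), and had −0.17 in VCaP (adjusted p 0.091). UQCRH, the hinge protein and the most abundant member per length in VCaP NSI (192 ± 17.5 CPM per kb, SD, n = 3), had −0.52 in PC3 (adjusted p 0.0507; 1.80e-04 with the block) and −0.14 in VCaP (adjusted p 0.155).

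The small subunits of complex III went both ways in VCaP. UQCRB, at 135, 142 and 154 CPM with NSI against 126, 121 and 127 CPM with siFOXA1 in VCaP, fell by 0.20 (adjusted p 0.0327), and UQCRQ fell by 0.19 (adjusted p 0.0319). UQCR10 was at 39.7, 37.98 and 41.7 CPM with NSI against 47.2, 49.03 and 46.8 CPM with siFOXA1 in VCaP and rose by 0.26 (adjusted p 0.00453). UQCR11, whose promoter is shown above, was at 41.7, 37.1 and 40.04 CPM with NSI against 44.1, 44.1 and 47.05 CPM with siFOXA1 in VCaP and rose by 0.19 (adjusted p 0.0352). Neither pair of groups overlapped for UQCR10 or UQCR11. In PC3 their log2 fold changes were −0.21 (adjusted p 0.476; 0.0246 with the block) and −0.34 (adjusted p 0.317; 0.00788 with the block). Single libraries decided several calls of the complex: UQCRFS1 in PC3 lost its call without siFOXA1 replicate 1 (adjusted p 0.0513), and CYC1 and UQCRC2 in PC3 without NSI replicate 3 or siFOXA1 replicate 1 (up to 0.0793 and 0.0845). In VCaP, CYC1 lost its call without NSI replicate 1 or 3 or siFOXA1 replicate 1 or 2 (up to 0.132), UQCRB without NSI replicate 3 or siFOXA1 replicate 1 or 2 (up to 0.129), UQCRQ without NSI replicate 1 or 3 or siFOXA1 replicate 2 or 3 (up to 0.0874), and UQCR11 in every case but that without NSI replicate 1 (up to 0.13).

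In complex IV, 4 of 14 tested members were called lower in PC3 and 0 higher (28.6%, near the 27.0% of all genes tested), at a median of −0.41. With the replicate block 11 were called lower (78.6%, where 21.0% of all genes were). In VCaP, 3 of 12 were called lower and 2 higher (41.7%, near the 45.8% of all genes tested), at a median of −0.08. COX7A2, the form of subunit VIIa found in most tissues (ENSG00000112695.11_3, chr6:75947391-75960039, minus strand), was at 61.3, 57.4 and 64.1 CPM across the NSI libraries against 34.2, 32.96 and 32.5 CPM across the siFOXA1 libraries in VCaP. It fell by 0.88 (SE 0.06, adjusted p 4.30e-06), the lowest log2 fold change in VCaP of the members placed in a complex, and the groups are far apart. In PC3 it was at 78.1, 119 and 88.4 CPM across the NSI libraries against 52.5, 76.95 and 60.9 CPM across the siFOXA1 libraries, with the highest siFOXA1 library just below the lowest NSI library, and fell by 0.58 (SE 0.18, adjusted p 0.0439). COX8A, a small subunit, was the most abundant complex IV member per length in VCaP NSI (444 ± 45.7 CPM per kb, SD, n = 3), with 34.5% of its exon bases shared with another gene. It was at 74.3, 96.2 and 81.8 CPM with NSI against 50.5, 70.5 and 42.01 CPM with siFOXA1 in PC3 and at 234, 199 and 242 CPM with NSI against 190.1, 198 and 187 CPM with siFOXA1 in VCaP, without overlap in either. It fell by 0.63 (SE 0.18, adjusted p 0.0347) and by 0.23 (SE 0.08, adjusted p 0.04499).

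COX7C and NDUFA4 were called lower in PC3 and not in VCaP. COX7C was at 209, 311 and 241 CPM with NSI against 149, 214 and 146 CPM with siFOXA1 in PC3, with groups that overlap through the second siFOXA1 library, and fell by 0.58 (adjusted p 0.0474); in VCaP it had −0.09 (adjusted p 0.423). NDUFA4, first assigned to complex I and now to complex IV, was at 78.5, 113 and 86.5 CPM with NSI against 58.6, 77.4 and 60.7 CPM with siFOXA1 in PC3, without overlap, and fell by 0.50 (adjusted p 0.0458). In VCaP its adjusted p was 0.657. Neither COX7C nor NDUFA4 was called for the difference between the lines (adjusted p 0.0991 and 0.0609; 0.00165 and 0.00151 with the block). In PC3, COX7A2, COX8A, COX7C and NDUFA4 each lost the call without NSI replicate 2 or 3 or siFOXA1 replicate 1 or 3 (adjusted p up to 0.155, 0.122, 0.163 and 0.163), and in VCaP COX8A lost it in every case but that without NSI replicate 2 (up to 0.117).

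COX4I1, the regulatory subunit IV of most tissues, was called lower in VCaP, and in PC3 with the block but not without it. COX4I1 was not called for the difference between the lines. It was at 50.03, 47.02 and 56.4 CPM with NSI against 38.3, 40.7 and 40.5 CPM with siFOXA1 in VCaP and fell by 0.36 (SE 0.07, adjusted p 0.00313), and at 202, 307 and 224 CPM with NSI against 186, 249.7 and 182 CPM with siFOXA1 in PC3, where the groups overlap (log2 fold change −0.25, adjusted p 0.336; 0.0134 with the block). COX5A, a matrix-side subunit, was at 42.7, 54.6 and 43.6 CPM with NSI against 32, 41.4 and 27.2 CPM with siFOXA1 in PC3, without overlap, with a log2 fold change of −0.49 (adjusted p 0.0553; 4.43e-04 with the block) and of 0.07 in VCaP (adjusted p 0.558). Its difference between the lines was 0.58 (adjusted p 0.0404), a call kept in 3 of the 12 fits that each left out a library (adjusted p up to 0.123). COX5B, its matrix-side neighbour, was at 143, 231 and 168 CPM with NSI against 129, 209.8 and 71.2 CPM with siFOXA1 in PC3, where the siFOXA1 libraries differ among themselves by more than the group means (log2 fold change −0.40, adjusted p 0.411; 0.0441 with the block). VCaP libraries held it at 41.7, 39.4 and 47.3 CPM with NSI against 49, 50.6 and 55.04 CPM with siFOXA1, and it rose by 0.27 (adjusted p 0.0201), a call lost without NSI replicate 1 or 2 or siFOXA1 replicate 3 (up to 0.0811).

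COX7B, a small membrane subunit (ENSG00000131174.4_2, chrX:77154935-77162870, plus strand), had the largest called positive difference between the lines after ATP5I. It was at 149.8, 226 and 166 CPM across the NSI libraries against 115, 162 and 118 CPM across the siFOXA1 libraries in PC3, where the groups overlap, and its log2 fold change was −0.45 (SE 0.18, adjusted p 0.0964; 2.70e-04 with the block). The VCaP values were 104, 99.2 and 107 CPM across the NSI libraries against 119, 119 and 129 CPM across the siFOXA1 libraries, without overlap, and COX7B rose by 0.24 (SE 0.06, adjusted p 0.0125). The lines differed by 0.71 (SE 0.19, adjusted p 0.0156), a call lost only without PC3 siFOXA1 replicate 1 (adjusted p 0.0511). COX6A1, the most abundant complex IV member per length in PC3 NSI (278 ± 44.7 CPM per kb, SD, n = 3), had −0.41 in PC3 (adjusted p 0.117; 0.00113 with the block) and −0.06 in VCaP (adjusted p 0.503), and its pseudogenes held 26.9% and 24.3% of the reads of parent and pseudogenes. COX6B1, which faces the intermembrane space, had −0.25 in PC3 (adjusted p 0.403; 0.01199 with the block) and −0.13 in VCaP (adjusted p 0.1702).

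The tissue-restricted partners of these subunits stayed near 0 in both lines and both treatments. COX4I2, COX6A2, COX7B2 and COX8C passed the filter on low counts in neither line, and COX7A1 and COX6B2 passed in PC3 alone. COX6B2 was at 1.04, 0.9505 and 1.17 CPM with NSI against 1.297, 1.04 and 1.28 CPM with siFOXA1 in PC3 and was not called (adjusted p 0.423). NDUFA4L2, known as a hypoxia-induced relative of NDUFA4, was at 7.13, 7.42 and 7.49 CPM with NSI against 5.65, 7.97 and 5.49 CPM with siFOXA1 in PC3 and at 0.289, 0.359 and 0.348 CPM with NSI against 0.179, 0.239 and 0.248 CPM with siFOXA1 in VCaP and was called in neither line (adjusted p 0.338 and 0.115).

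All 15 ATP synthase members had a log2 fold change below 0 in PC3, at a median of −0.38. There 5 were called lower and 0 higher (33.3%, against 27.0% of all genes tested). Under the replicate block 12 were called lower (80%, where 21.0% of all genes were). In VCaP, 14 of 15 lay below 0, at a median of −0.10, and 5 were called lower and 0 higher (33.3%, below the 45.8% of all genes tested). ATP5B, the catalytic beta subunit (ENSG00000110955.8_3, chr12:57031963-57039852, minus strand), was the most abundant member of the whole set per length, at 467 ± 21.6 CPM per kb in PC3 NSI and 524 ± 42.4 in VCaP NSI (SD, n = 3). In PC3 it was at 841, 905 and 833 CPM across the NSI libraries against 640.1, 648 and 653 CPM across the siFOXA1 libraries, and in VCaP at 967, 883 and 1039 CPM across the NSI libraries against 664, 674 and 654 CPM across the siFOXA1 libraries. Every siFOXA1 library lay below every NSI library in both lines. ATP5B fell by 0.41 in PC3 (SE 0.08, adjusted p 0.00646) and by 0.54 in VCaP (SE 0.08, adjusted p 4.78e-04), and both calls were kept whichever library was left out. ATP5A1, the alpha subunit (ENSG00000152234.15_3, chr18:43660214-43684199, minus strand), was at 200.5, 239 and 204 CPM with NSI against 154, 162 and 158 CPM with siFOXA1 in PC3 and at 438, 428 and 471 CPM with NSI against 370.1, 372 and 368 CPM with siFOXA1 in VCaP, again without overlap. It fell by 0.44 (SE 0.09, adjusted p 0.00968; 0.0549 without siFOXA1 replicate 1) and by 0.27 (SE 0.07, adjusted p 0.00904).

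ATP5G1, ATP5G2 and ATP5G3 encode the same c-ring protein with different leader peptides. ATP5G2 was the c-ring gene called in both lines, at 169, 213 and 182 CPM with NSI against 129, 155 and 145 CPM with siFOXA1 in PC3 and at 118, 107 and 129 CPM with NSI against 89.04, 89.7 and 91.1 CPM with siFOXA1 in VCaP. It fell by 0.39 in each line (SE 0.11, adjusted p 0.0319 in PC3; SE 0.07, adjusted p 0.00202 in VCaP), without overlap in either. ATP5G1 was at 70.6, 106 and 76.7 CPM with NSI against 52.9, 72.8 and 58.2 CPM with siFOXA1 in PC3 (log2 fold change −0.46, adjusted p 0.0788; 3.07e-04 with the block) and was not called in VCaP (adjusted p 0.824). ATP5G3 had −0.10 in PC3 (adjusted p 0.6495) and fell by 0.17 in VCaP (adjusted p 0.0386), a call lost in every case but that without NSI replicate 2 (up to 0.11).

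ATP5I, subunit e of the membrane part (ENSG00000169020.9_2, chr4:666225-668127, minus strand), had the lowest PC3 log2 fold change of all members. It was at 43.4, 72.6 and 51.5 CPM across the NSI libraries against 26.3, 40.8 and 27.9 CPM across the siFOXA1 libraries in PC3, with the groups apart, and fell by 0.82 (SE 0.22, adjusted p 0.02499). In VCaP it was at 47.7, 42.5 and 53.3 CPM with NSI against 42.6, 45.03 and 46.02 CPM with siFOXA1, where the groups overlap (log2 fold change −0.10, adjusted p 0.3403), and the lines differed by 0.74 (SE 0.24, adjusted p 0.0397), a call kept in 3 of the 12 fits that each left out a library (up to 0.11). Of its exon bases, 49.9% overlap a gene on the other strand (MYL5), whose reads the PC3 counts cannot tell apart. ATP5F1, the stalk subunit b, was at 158, 192 and 172 CPM with NSI against 126, 146 and 127 CPM with siFOXA1 in PC3 and fell by 0.38 (adjusted p 0.0258), with −0.04 in VCaP (adjusted p 0.614) and a difference of 0.36 (adjusted p 0.0427). That difference was kept in 2 of 12 fits that left out a library (up to 0.159). In PC3, ATP5I and ATP5F1 lost their calls without NSI replicate 3 or siFOXA1 replicate 1 or 3 (up to 0.0982 and 0.114), and ATP5G2 without these or NSI replicate 2 (up to 0.137). ATP5O, the subunit that joins stalk and head, fell by 0.28 in VCaP (adjusted p 0.0124; 0.0558 without siFOXA1 replicate 2), with 70.3% of its exon bases shared with another gene. ATPIF1, the inhibitor of the synthase and not taken by the rule, was at 51.2, 49.7 and 54.6 CPM with NSI against 39.4, 36.1 and 34.96 CPM with siFOXA1 in VCaP and fell by 0.49 (adjusted p 2.35e-04), against 0.20 in PC3 (adjusted p 0.518).

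COX7A2L was the member called in opposite directions in the 2 lines. It encodes a relative of COX7A2 that joins complexes III and IV in supercomplexes (ENSG00000115944.14_3, chr2:42576478-42596150, minus strand). In PC3 it was at 94.4, 97.8 and 106 CPM across the NSI libraries against 74.3, 81.2 and 81.2 CPM across the siFOXA1 libraries and fell by 0.33 (SE 0.09, adjusted p 0.0221). For VCaP the values were 38.8, 41.1 and 44.3 CPM across the NSI libraries against 48.4, 48.2 and 49.03 CPM across the siFOXA1 libraries, and it rose by 0.23 (SE 0.06, adjusted p 0.0129). The groups do not overlap in either line. The difference was 0.58 (SE 0.11, adjusted p 0.00161) and was called whichever library was left out, although leaving out NSI replicate 3 or siFOXA1 replicate 1 ended the PC3 call (adjusted p up to 0.113) and leaving out NSI replicate 1 the VCaP call (0.0699). COX7A2 and COX7A2L thus went the same way in PC3 and opposite ways in VCaP. ATP5SL, named for its likeness to ATP5S and a factor for complex I, fell by 0.45 in PC3 (adjusted p 0.01595; 0.08 without siFOXA1 replicate 1) and had −0.07 in VCaP (adjusted p 0.436), a difference of 0.39 (adjusted p 0.0405), which was kept in 2 of 12 fits that left out a library (up to 0.143). ATP5S rose by 0.16 in VCaP (adjusted p 0.0488), a call lost without any 1 library (up to 0.243).

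Across the lines, 8 of the 82 members tested in both were called lower in both: ATP5B, ATP5A1, ATP5G2, UQCRFS1, CYC1, COX7A2, COX8A and NDUFV2. They are 8 of the 18 members called lower in PC3 and 8 of the 23 in VCaP. Of the 19261 genes tested in both lines, 5.72% were called lower in both and 5.04% in opposite directions. With the replicate block in PC3, 17 of the 82 members were called lower in both, where 9.53% of all genes were. Another 6 of the 82 were called lower in PC3 and higher in VCaP, where 3.60% of all genes were: COX7A2L, COX5B, NDUFB5, UQCR11, UQCR10 and COX7B. The log2 fold changes of the 81 members at 5 CPM or more in both lines correlated weakly between the lines (Pearson's r 0.07, Spearman's rho 0.10), and all genes tested in both had an r of 0.19; this is across genes, which are not independent replicates, and the members of a line share its 6 libraries.

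The difference itself, the VCaP effect minus the PC3 effect in 1 fit of 12 libraries, was called for 13 of 85 members, 10 of them positive, which is 15.3% against 22.2% of the 30425 genes tested (11.3% positive, 11.0% negative). With the replicate block, which in this fit also paired the VCaP libraries by number, 39 members were called, 32 of them positive, 45.9% against 29.0%. A positive value here means a lower level in PC3, a higher level in VCaP, or both. The positive calls were ATP5I, COX7B, SDHD, COX7A2L, COX5A, NDUFB5, UQCRC2, ATP5SL, ATP5F1 and NDUFA10, and the negative ones NDUFC2-KCTD14, NDUFC2 and SDHA. Calls of COX7A2L, NDUFB5, NDUFC2-KCTD14, SDHD and UQCRC2 were kept whichever library was left out. The count ran from 6 without VCaP siFOXA1 replicate 2 to 23 without PC3 siFOXA1 replicate 2, and 16.7% and 23.4% of all genes were called there. Without PC3 NSI replicate 2, the highest control for most members, 5 of the 13 calls were positive and 8 negative. The count was 8 without the third NSI or the first siFOXA1 library of PC3 or the second NSI library of VCaP, and 7 without the first NSI or the first or the third siFOXA1 library of VCaP. Because the lines also differ in dose, kit and counting mode, these differences cannot be told apart from the difference between the lines.

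**Figure D4:**
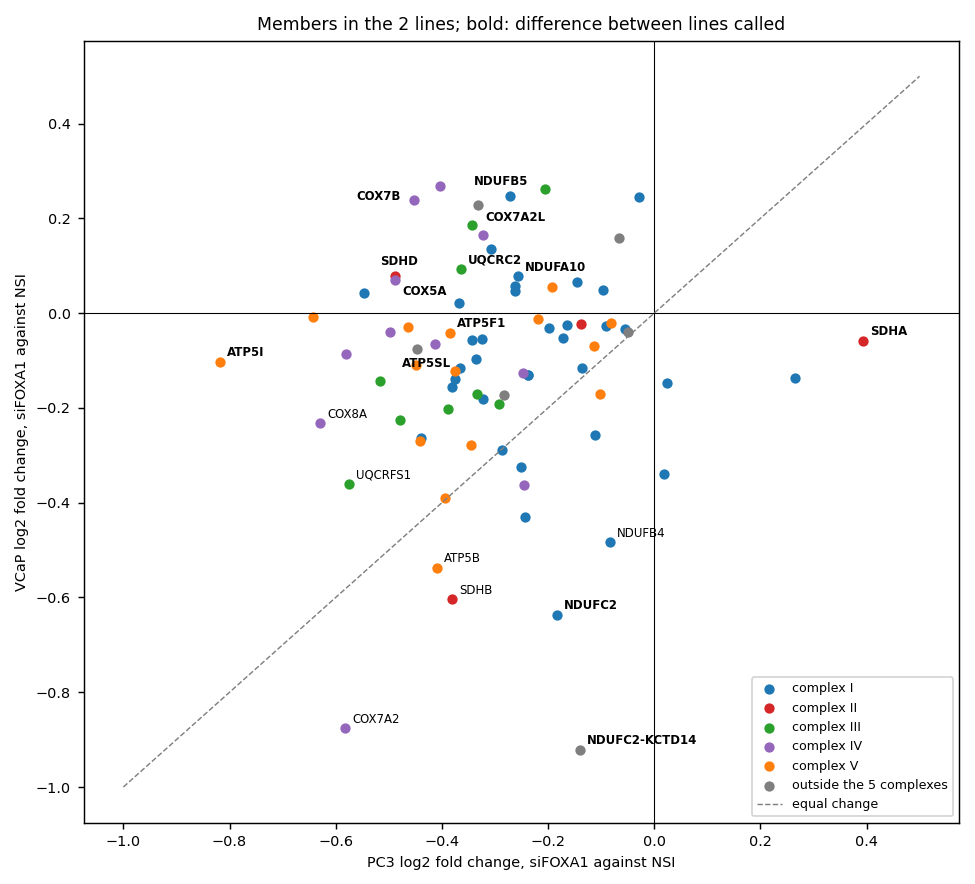
Log2 fold change in PC3 (x axis) against that in VCaP (y axis) for 80 of the 81 members at 5 CPM or more in both lines, coloured by complex, with names in bold for members whose difference between the lines was called. Most points lie left of 0 in PC3 with a wide vertical spread. SDHA lies farthest to the right, and COX7B, COX7A2L, NDUFB5 and SDHD sit above 0 in VCaP.

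Of 53 assembly factors, which build the complexes, 10 were called lower and 1 higher in PC3 (20.8%, below the 27.0% of all genes tested), at a median of −0.15. With the block 21 were called lower and 2 higher (43.4% against 42.7% of all genes). In VCaP 15 were called lower and 7 higher (41.5% against 45.8%), at a median of −0.02. In PC3, ECSIT, a complex I assembly factor, fell by 0.71 (adjusted p 0.00706) and ATPAF1, a chaperone of the ATP synthase head, by 0.53 (adjusted p 0.00197); SDHAF2, which helps add flavin to SDHA, fell by 0.54 (adjusted p 0.02101). LRPPRC, which stabilises mitochondrial messenger RNA, fell by 0.44 (adjusted p 0.0143), and UQCC1, a complex III factor, rose by 0.27 (adjusted p 0.0443). The call of UQCC1 was lost without any 1 library other than NSI replicate 2 (adjusted p up to 0.166), that of LRPPRC without NSI replicate 3 (0.05995) and that of SDHAF2 without siFOXA1 replicate 1 (0.0875). In VCaP, SCO1 and COX15, which serve copper delivery and heme a synthesis for complex IV, fell by 0.86 and 0.73 (adjusted p 7.11e-06 and 2.49e-05), and NUBPL, which delivers iron-sulfur clusters to complex I, fell by 0.72 (adjusted p 1.66e-04). TTC19, a complex III factor, fell by 0.62 (adjusted p 8.07e-05). COX14 and LYRM7, factors for complex IV and for the Rieske protein, rose by 0.54 and 0.53 (adjusted p 2.76e-04 and 1.53e-04).

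Among 16 regulators of mitochondrial gene expression, 8 were called lower and 0 higher in PC3, against 12.1% and 15.0% of all genes tested, and 11 were called lower with the block, against 21.0%. In VCaP 3 of 15 tested were called lower and 3 higher (40%, below the 45.8% of all genes). ESRRA, the estrogen-related receptor alpha, was at 46.7, 54.6 and 52.4 CPM across the NSI libraries against 29.97, 32.9 and 25.6 CPM across the siFOXA1 libraries in PC3 and fell by 0.80 (SE 0.11, adjusted p 0.00156). VCaP libraries held it at 87.6, 87.6 and 107 CPM across the NSI libraries against 106, 115 and 127 CPM across the siFOXA1 libraries, and it rose by 0.30 (SE 0.10, adjusted p 0.0298), a difference of 1.12 (adjusted p 8.99e-05). The VCaP call was lost without NSI replicate 1 or 2 or siFOXA1 replicate 2 or 3 (adjusted p up to 0.118). PPARGC1B, a coactivator of that receptor, followed the same pattern. It was at 18.3, 13.1 and 16.8 CPM with NSI against 11.2, 8.06 and 11.5 CPM with siFOXA1 in PC3 and fell by 0.64 (adjusted p 0.0229), and at 14.5, 17.6 and 19.6 CPM with NSI against 28.4, 32.8 and 38.9 CPM with siFOXA1 in VCaP, where it rose by 0.95 (adjusted p 3.45e-04); leaving out NSI replicate 1 or 3 or siFOXA1 replicate 1 ended the PC3 call (up to 0.075). TFAM, which packages and transcribes mitochondrial DNA, fell in both lines, from 43.04 ± 3.19 to 27.9 ± 2.06 CPM (SD, n = 3 each) in PC3 (by 0.62, adjusted p 0.002298) and from 82.2 ± 3.81 to 48.05 ± 3.08 CPM (SD, n = 3 each) in VCaP (by 0.77, adjusted p 1.68e-05). GABPA fell by 0.25 in PC3 (adjusted p 0.0405) and was not called in VCaP (0.04, adjusted p 0.5797), and its partner GABPB1 fell by 0.45 and 0.46 (adjusted p 0.00513 and 8.04e-04). The GABPA call in PC3 was lost without any 1 library other than NSI replicate 2 (up to 0.132), and also with upper-quartile factors (0.064), with library size alone (0.0983) and with no filter on low counts (0.0664). NRF1 fell by 0.32 in VCaP (adjusted p 0.00317) and had −0.25 in PC3 (adjusted p 0.0578; 0.0116 with the block). TFB1M, a ribosomal RNA methyltransferase, rose by 0.77 in VCaP (adjusted p 7.10e-05). PPRC1 was called in neither line without a block (adjusted p 0.166 and 0.0792; 0.0319 in PC3 with it), and PPARGC1A stayed below 1 CPM in every library.

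Of the 13 subunits encoded by mitochondrial DNA, 10 lay below 0 in PC3, at a median of −0.11, and 1, MT-ND3, was called lower (by 0.33, adjusted p 0.0428) and 0 higher (7.69%, against 27.0% of all genes). The MT-ND3 call was lost without any 1 library other than siFOXA1 replicate 2 (adjusted p up to 0.173). In VCaP 2 lay below 0, at a median of 0.19, and 3 were called higher and 1 lower (30.8% against 45.8%). MT-CO2 was at 676, 706 and 592 CPM with NSI against 896, 973 and 1120 CPM with siFOXA1 in VCaP and rose by 0.60 (adjusted p 0.001205), MT-CO1 rose by 0.41 (adjusted p 0.00378) and MT-ND6, from the other strand of the mitochondrial genome, fell by 0.37 (adjusted p 0.0328), a call lost without NSI replicate 1 or 2 or siFOXA1 replicate 2 or 3 (up to 0.104). The share of all counts from the mitochondrial genome was 3.02% to 3.29% in VCaP NSI and 4.04% to 4.69% in VCaP siFOXA1, and 13.1% to 15.7% and 13.4% to 14.9% in PC3. Poly(A) and total RNA kits capture these transcripts differently, so levels are not compared between the lines.

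Of 12 genes for coenzyme Q and the mobile carriers, 6 were called lower in PC3 and 0 higher, against 12.1% and 15.0% of all genes, and 8 were called lower with the block, against 21.0%. In VCaP 4 were called lower and 2 higher (50%, near the 45.8% of all genes). ADCK3, a kinase-like factor for coenzyme Q, fell by 0.63 in PC3 (adjusted p 0.00228) and COQ3, a methyltransferase, by 0.61 (adjusted p 0.0421), the latter a call lost without NSI replicate 2 or 3 or siFOXA1 replicate 1 or 3 (up to 0.14); COQ7, a hydroxylase, fell by 0.78 in VCaP (adjusted p 2.40e-05), PDSS2 by 0.76 (adjusted p 1.08e-04), and COQ2 rose by 0.33 (adjusted p 0.002503). Of 13 tricarboxylic acid cycle genes, 3 were called lower in PC3 and 0 higher (23.1%, against 27.0% of all genes), and all 13 lay below 0; with the block 10 were called lower (76.9%, against 42.7%). In VCaP 2 were called lower and 2 higher (30.8% against 45.8%). Citrate synthase, CS, fell by 0.32 in PC3 and 0.49 in VCaP (adjusted p 0.02295 and 0.00105), and the fits of PC3 that left out NSI replicate 1 or 3 or siFOXA1 replicate 1 did not call it (up to 0.102). The isocitrate dehydrogenase subunit IDH3B fell by 1.08 in VCaP (adjusted p 4.72e-06), and IDH3G fell by 0.56 in PC3 (adjusted p 0.0132), a call lost without siFOXA1 replicate 1 (0.0661). OGDH, of the 2-oxoglutarate dehydrogenase complex, rose by 0.67 in VCaP (adjusted p 2.96e-05).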

How the data were processed

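RNA-seq counts of 12 libraries were used. The deposited values are expected counts, which the authors obtained with featureCounts, per the file headers (Subread 2.0.0, per the submitters' processing notes), summing exons by gene of GENCODE v28lift37 basic on GRCh37, with multi-mapping and overlapping fragments divided; the aligner STAR 2.7.3a is named in the same notes. Per the file headers, PC3 counts ignored strand and VCaP counts were reverse-stranded. Counts were rounded to whole numbers and fitted per line with edgeR 4.0.16 (R 4.3.3; filterByExpr, TMM factors 0.959 to 1.04, two-sided quasi-likelihood test), with Benjamini-Hochberg adjustment over all genes tested and calls at an adjusted p under 0.05. The difference between lines was the interaction term over 12 libraries. A standard error is the log2 fold change divided by the square root of F. The spread between replicates (biological coefficient of variation) was 15.0% for PC3 and 9.90% for VCaP. In data simulated with 200 changed genes, a fold of 0.667 was called for 34% of 50 genes in PC3 and 90% in VCaP. The simulation changed far fewer genes than the 27.0% and 45.8% called here. It also gave all genes a common dispersion and no shared replicate effect, so these shares do not measure the power of the reported tests.

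In PC3, deviations of same-numbered libraries correlated at 0.66, 0.72 and 0.30 over 12315 genes at 5 CPM or more (0.15, 0.31 and 0.09 over all tested). The numbers were therefore treated as pairs from the data, not the labels. At 5 CPM or more, NSI replicate 3 deviated most like siFOXA1 replicate 1, so its pairing is uncertain. In VCaP the correlations were 0.18, −0.05 and 0.41, and no pairing was used for the VCaP calls. The replicate block in the fit of the difference between lines took the numbers as pairs in both lines, VCaP included. The members and lists were chosen with earlier results of these data known. Named members were FOXA1, catalytic subunits and isoform sets, the 3 called members with the highest and the 3 with the lowest log2 fold change of each complex and line at 5 CPM or more, the 3 largest differences between lines of each sign, members called in opposite directions, the most abundant per length, and, of the other lists, fixed regulators and up to 2 called genes at each end; a few genes these rules take are not reported here. Alternatives were DESeq2 1.42.0, other scaling factors, no filter on low counts, pseudogene counts added, a minimum fold of 1.2, the replicate block, a fit over all 12 libraries and leaving out each library; leaving out both PC3 libraries numbered 2 was added after seeing the data. The motif windows and sequences came from RefSeq on GRCh38.p14, and gene positions from the GRCh37 tables.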

Additional observations from a re-analysis of the deposited data

Results flagged for a closer look

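The difference between the lines, the VCaP log2 fold change minus that of PC3, passed the test of the difference itself for 13 members, against 22.2% of all genes tested. The positive values were 0.74 for ATP5I (adjusted p 0.0397, edgeR quasi-likelihood test), 0.71 for COX7B (0.0156), 0.59 for SDHD (0.00154), 0.58 for COX7A2L (0.00161), 0.58 for COX5A (0.0404), 0.54 for NDUFB5 (0.0146), 0.48 for UQCRC2 (0.00609), 0.39 for ATP5SL (0.0405), 0.36 for ATP5F1 (0.0427) and 0.36 for NDUFA10 (0.0431). The negative values were −0.76 for NDUFC2-KCTD14 (0.00391), −0.43 for NDUFC2 (0.0432) and −0.43 for SDHA (0.0276). SDHD and SDHA, 2 subunits of the same complex, thus differed between the lines in opposite directions, and COX7A2L was called in opposite directions within the lines. The lines cannot be told apart from dose, kit and counting mode.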

How the results depend on the processing

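Members called in PC3 numbered 19, and 33 with no filter on low counts, 59 with the replicate block, 32 in the fit over all 12 libraries, 2 with a minimum fold change of 1.2, 51 without both libraries numbered 2 and 3 to 41 with 1 library left out. With library size alone it was 13 (12 lower). The shares of all genes called were 27.0%, 16.7%, 42.7%, 29.8%, 15.4% and 38.1% in the same order. They were 14.6% to 27.8% with 1 library left out and 27.0% with library size alone. The PC3 median stayed below 0 in every setting run, at −0.46 to −0.13 with 1 library left out. In VCaP 31 were called, and 10 in the fit over all 12 libraries, 7 at a minimum fold of 1.2, 29 with the replicate block (7 higher, 22 lower), which served only as a check in that fit, and 21 to 29 with 1 library left out. Of all genes, 45.8%, 28.0%, 28.3% and 50.1% were called in the same order, and 37.1% to 42.3% with 1 library left out. The VCaP median of −0.09 was −0.038 with upper-quartile factors, −0.057 with nuclear protein-coding genes only, −0.044 in the fit over all 12 libraries and −0.13 to −0.042 with 1 library left out. Calls of the difference between lines numbered 13, and 39 with the replicate block in both lines, 4 at a minimum fold of 1.2, 27 without both libraries numbered 2, 6 to 23 with 1 library left out, and 5 positive and 4 negative with library size alone. For all genes the shares were 22.2%, 29.0%, 15.9% and 27.5% in the same order. They were 16.7% to 24.9% with 1 library left out and 21.4% with library size alone. No scaling moved the median of all genes by over 0.1. The cause of these shifts was not tested.

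Among the named values, directions reversed only for log2 fold changes that were not called. The largest of these were 0.20 for ATPIF1 and −0.16 for NDUFB7 in PC3, of the size of some called changes in VCaP. In PC3, ATP5G3 (−0.10) was −0.27 to 0.026 with 1 library left out (reversed without NSI replicate 2). NDUFB4 (−0.084) was −0.22 to 0.033 with 1 library left out (reversed without NSI replicate 2). NDUFB7 (−0.16) was −0.52 to 0.070 with 1 library left out (reversed without NSI replicate 2). NDUFV1 (−0.11) was −0.25 to 0.097 with 1 library left out (reversed without NSI replicate 2). ATPIF1 (0.20) was −0.090 to 0.37 with 1 library left out (reversed without siFOXA1 replicate 2). In VCaP, ATP5F1 (−0.041) was 0.0077 with upper-quartile factors. ATP5G1 (−0.030) was 0.020 with upper-quartile factors, 2e-04 with nuclear protein-coding genes only, 3e-04 in the fit over all 12 libraries and −0.13 to 0.054 with 1 library left out (reversed without NSI replicate 3 or siFOXA1 replicate 1). NDUFA4 (−0.040) was 0.0095 with upper-quartile factors and −0.10 to 8e-04 with 1 library left out (reversed without NSI replicate 3). NDUFB7 (−0.024) was 0.025 with upper-quartile factors, 0.0063 with nuclear protein-coding genes only, 0.0068 in the fit over all 12 libraries and −0.094 to 0.027 with 1 library left out (reversed without NSI replicate 3). SDHC (−0.023) was 0.026 with upper-quartile factors, 0.0072 with nuclear protein-coding genes only, 0.0087 in the fit over all 12 libraries and −0.054 to 0.011 with 1 library left out (reversed without siFOXA1 replicate 1). SDHA (−0.058) was 0.028 with pseudogene counts added to their parent. COX7C (−0.087) was −0.16 to 0.0040 with 1 library left out (reversed without NSI replicate 3). COX5A (0.070) was −0.040 to 0.13 with 1 library left out (reversed without siFOXA1 replicate 3).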
